A study of Danio rerio with 10 samples.

Results

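Axonemal dyneins are the motors of cilia and of the sperm tail, and 31 zebrafish genes of their subunits and assembly factors were followed in testes of 10 adult males. The genes were chosen by name: every gene of the array with a single symbol that begins with dnah, dnai, dnal, dnaaf or odad was taken, which gave 31 of the 19260 genes measured. Of these, 3 encode heavy chains of the outer dynein arm, 5 heavy chains of the inner arms, 6 intermediate and light chains of the outer arm and 4 of the inner arms. Another 4 encode parts of the complex that docks the outer arm, and 9 encode assembly factors. These roles were set by hand from the gene names. Another 5 genes with such names in the current RefSeq annotation (dnaaf5, dnah3, dnah5l, dnah12 and dnai2b) were not analysed here.

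All fish were wild-type males of the AB strain and 1 year old. In the exposed group, 5 males had been kept for 1 h in water with TCDD (2,3,7,8-tetrachlorodibenzo-p-dioxin, a ligand of the aryl hydrocarbon receptor) at 50 pg/ml, once at 3 and once at 7 weeks after fertilization. The control group of 5 males had received the solvent DMSO at the same ages. Total RNA of the testes was hybridised to 1 Affymetrix whole-transcript array per sample, and values are given on the log2 scale. The comparison addresses whether a brief exposure during sexual differentiation is followed by altered expression in the adult testis, and differences are TCDD minus DMSO throughout.

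The axoneme is a ring of doublet microtubules around a central pair. Outer dynein arms provide most of the power of the beat and inner arms shape its waveform. Both are large complexes, in which heavy chains carry the motor domain and intermediate and light chains hold the complex together, tether it to the doublet or regulate it. They are assembled in the cytoplasm with the help of chaperones and assembly factors before they are carried into the growing axoneme. In the testis the main ciliated product is the sperm flagellum, so that these genes are used by late germ cells, as meiosis ends and spermatids form.

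The genes were bright in this tissue. Of the 31, 30 had a mean above the median probe of the array and 20 lay above its 90th percentile, and the median gene of the group lay at percentile 92.8, against 73.0 over all genes. dnaaf3l, at percentile 39.7, was the 1 gene below the median probe. Brightness of a probe also depends on its sequence, so that levels of different genes are not set against each other here.

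One control array, DMSO 1, stood apart from all others in these genes, and it is given with every result. It was singled out by the values of these same genes, so leaving it out raises their DMSO means by that choice. The p-values and intervals without DMSO 1 do not allow for this. DMSO 1 was the lowest of the 10 arrays for 30 of the 31 genes, which was true of 28.8% of all genes, of 33.8% of those above the median probe and of 55% of those above the 90th percentile. dnaaf3l, read by its brightest probe, was the exception. DMSO 1 lay at least 2 log2 units below the median of the other 9 arrays for 22 of the 31, against 2.75% of all genes and 3.36% of those above the median probe. Above the 90th percentile of probes 17 of 20 genes of the group lay that far below, against 10.7% of all genes there. Over all genes the median displacement of DMSO 1 was -0.019, and over the 31 genes it was -2.60. Every distance of DMSO 1 below or above the other arrays is given from the median of those 9 arrays. In whole-tissue RNA, fewer cells of a type and less RNA per cell cannot be told apart. Genes of intestine and exocrine pancreas had their highest mean levels in DMSO 1, at 11.1 and 12.1, and the part of these tissues was not tested. The mean correlation of DMSO 1 with the other arrays was 0.918 over all probes, and that of the others was 0.952 to 0.961.

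**Figure D1:**
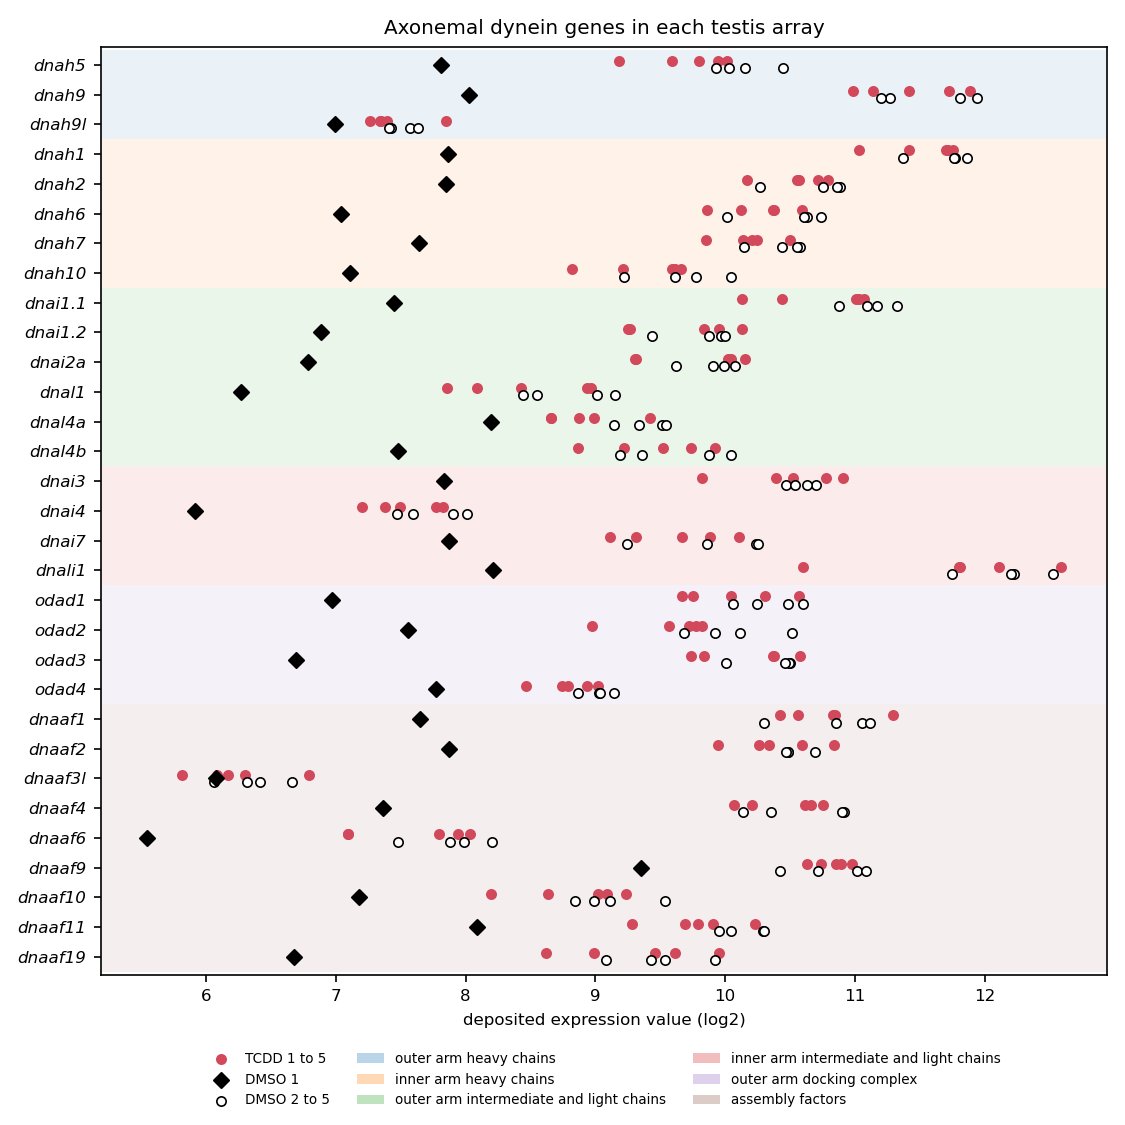
Expression values (log2, horizontal axis) of the 31 genes, 1 row per gene with the row colour giving its role, in 5 TCDD arrays (filled circles), DMSO 2 to 5 (open circles) and DMSO 1 (black diamonds). DMSO 1 is the lowest array in every row but dnaaf3l, while the circles of both groups overlap in all rows.

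The outer arm heavy chains were represented by dnah9, dnah5 and dnah9l. dnah9 (probe 12982374), a heavy chain of the outer arm that is known in zebrafish from the left-right organizer as well, was at 11.88, 11.14, 11.41, 10.99 and 11.73 in TCDD 1 to 5 and at 8.02, 11.27, 11.94, 11.81 and 11.20 in DMSO 1 to 5. All arrays but DMSO 1 lay within 0.95 of each other. Its means were 11.43 ± 0.38 in TCDD and 10.85 ± 1.61 in DMSO testes (SD, n = 5 each). TCDD testes were thus 0.58 higher, with a standard error of 0.64 and an adjusted p of 1.00 by limma, and without DMSO 1 the difference was -0.13 (95% CI -0.62 to 0.37). The groups overlapped either way.

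dnah9 was read by 4 probes, 3 under 1 Entrez identifier and 1 under another, and the annotation gave all of them the same symbol. Their differences over 10 arrays were 0.58, 0.14, 0.16 and -0.12, from the brightest to the dimmest, where the probe with the other identifier was the third. DMSO 1 lay below the other arrays' median by 3.39, 2.57, 2.98 and 0.72 in the same order. Heavy chain genes resemble each other in sequence, and which copies each probe detects was not tested.

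dnah5 encodes the other large motor of the outer arm. It was at 9.79, 9.59, 10.02, 9.18 and 9.95 in TCDD and at 7.81, 9.93, 10.44, 10.03 and 10.15 in DMSO arrays. Over 10 arrays the groups differed by 0.034 (95% CI -0.93 to 1.00). Without DMSO 1, 4 of 5 TCDD arrays lay within 9.59 to 10.02 and TCDD 4 at 9.18, against 9.93 to 10.44 in the DMSO arrays.

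dnah9l, a relative of dnah9, varied least among the 3. It was at 7.85, 7.35, 7.26, 7.40 and 7.34 in TCDD and 6.99, 7.57, 7.63, 7.42 and 7.41 in DMSO arrays, so that DMSO 1 lay only 0.42 below the median of the rest. TCDD 1 was the high array of its group. The difference was 0.034 (95% CI -0.31 to 0.38), and -0.069 without DMSO 1.

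In all 5 inner arm heavy chains DMSO 1 was the lowest array and TCDD 4 the next. dnah1, a single-headed inner arm motor, was at 11.70, 11.41, 11.71, 11.03 and 11.76 in TCDD and 7.86, 11.37, 11.77, 11.76 and 11.86 in DMSO arrays. DMSO 1 was thus 3.85 below the median of the others, or 14.4-fold if the values are log2 as read here, and the other 9 arrays spanned 0.83. The means were 11.52 ± 0.31 in TCDD and 10.92 ± 1.72 in DMSO testes (SD, n = 5 each). The gap of 0.60 had a standard error of 0.68 and an adjusted p of 1.00 by limma, and it became -0.17 (95% CI -0.55 to 0.22) without DMSO 1.

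dnah7, another single-headed motor, had the smallest range of the 5 over the arrays, just under that of dnah10. It was at 10.25, 10.14, 10.50, 9.85 and 10.21 in TCDD and 7.64, 10.14, 10.57, 10.55 and 10.44 in DMSO arrays. The difference was 0.32 (95% CI -0.79 to 1.42) over 10 arrays and -0.24 (95% CI -0.57 to 0.090) over 9. The remaining inner arm motors were dnah6, also single-headed, and dnah2 and dnah10, which together form the 2-headed inner arm. Their differences were 0.46, 0.44 and 0.23, and without DMSO 1 -0.23, -0.13 and -0.28. DMSO 1 lay 3.33, 2.87 and 2.50 below the other arrays in these genes.

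Among the intermediate and light chains of the outer arm, DMSO 1 was the lowest array in all 6, and TCDD 2 or TCDD 4 the next. dnai1.1 had the largest range of them, at 11.03, 10.44, 11.00, 10.13 and 11.07 in TCDD and 7.45, 10.88, 11.09, 11.17 and 11.32 in DMSO arrays. TCDD 2 and TCDD 4 were its lower TCDD arrays and lay below DMSO 2 to 5, and the other 3 lay within the range of DMSO 2 to 5. It differed by 0.35 (95% CI -1.11 to 1.81) over all arrays and by -0.38 (95% CI -0.84 to 0.080) without DMSO 1.

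dnai2a, the partner intermediate chain, was at 10.15, 9.31, 10.03, 9.31 and 10.04 in TCDD and 6.79, 9.62, 10.07, 9.99 and 9.90 in DMSO arrays. Again TCDD 2 and TCDD 4 were the lower TCDD arrays. The difference of 0.49 (95% CI -0.77 to 1.75) was the largest of the 6 chains and became -0.13 (95% CI -0.59 to 0.33). dnai1.2, a second gene of the dnai1 type, differed by 0.45 and -0.13.

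dnal4a, a light chain of the outer arm, dropped less in DMSO 1 than most of the group. It was at 9.42, 8.66, 8.99, 8.65 and 8.87 in TCDD and 8.19, 9.14, 9.52, 9.34 and 9.55 in DMSO arrays, with DMSO 1 only 0.95 below the others. Its means were 8.92 ± 0.32 in TCDD and 9.15 ± 0.56 in DMSO testes (SD, n = 5 each). TCDD testes were lower with DMSO 1 (-0.23, 95% CI -0.80 to 0.35) and without it (-0.46, 95% CI -0.84 to -0.086). Without DMSO 1 its limma adjusted p was 0.716, and 30 of the 31 genes had a difference below 0. The copy dnal4b was 2.04 below the others in DMSO 1 and differed by 0.26 and, without that array, -0.16. dnal1, a light chain bound to an outer arm motor domain, differed by 0.17 and -0.33.

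The inner arm chains include dnali1, a light chain of the single-headed arms, which had the largest range of all 31 genes. It was at 12.59, 10.60, 11.81, 11.80 and 12.11 in TCDD and 8.21, 11.75, 12.53, 12.23 and 12.20 in DMSO arrays. DMSO 1 lay 3.90 below the median of the others, or 14.9-fold on the log2 reading, and TCDD 2 was the next lowest. The difference was 0.40 (95% CI -1.26 to 2.06), -0.39 (95% CI -1.14 to 0.35) without DMSO 1, and -0.10 without both low arrays. A second, dim probe of dnali1, at percentile 47.6, spanned 6.19 to 6.98 in the 9 arrays and stood at 6.46 in DMSO 1.

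dnai3 and dnai4 encode intermediate chains of the 2-headed inner arm. dnai3 was at 10.90, 9.82, 10.78, 10.39 and 10.52 in TCDD and 7.83, 10.47, 10.54, 10.70 and 10.63 in DMSO arrays. DMSO 2 to 5 lay close together, and the TCDD arrays held both the lowest and the highest of the 9. The difference was 0.45 (95% CI -0.68 to 1.57), and -0.10 (95% CI -0.54 to 0.34) without DMSO 1.

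dnai4 was dimmer, at percentile 63.6, and had the smallest range of the 4 inner arm chains. It was at 7.49, 7.20, 7.77, 7.38 and 7.83 in TCDD and 5.91, 7.47, 7.60, 8.01 and 7.90 in DMSO arrays, a difference of 0.16 that became -0.21. dnai7, which is named as an inner arm intermediate chain as well, differed by 0.12 and -0.28.

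Docking of the outer arm on the doublet requires the complex encoded by odad1 to odad4. odad3 was at 10.58, 9.73, 10.37, 9.84 and 10.38 in TCDD and 6.70, 10.01, 10.50, 10.49 and 10.46 in DMSO arrays. DMSO 1 lay 3.68 below the others, or 12.8-fold, and TCDD 2 and TCDD 4 were the next lowest. Its difference of 0.55 (SE 0.66) became -0.18 (95% CI -0.62 to 0.25).

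odad4 had the smallest range of the 4 docking genes. Its brighter probe was at 8.74, 8.46, 9.02, 8.79 and 8.94 in TCDD and 7.77, 8.87, 9.03, 9.14 and 9.04 in DMSO arrays, a difference of 0.022 (95% CI -0.53 to 0.57), or -0.23 without DMSO 1. The second probe of odad4, nearly as bright, was lower in DMSO 1, at 6.31 against 8.22 to 9.49 in the others, so that the distance to the other arrays was 1.16 by 1 probe and 2.51 by the other. odad1 and odad2 differed by 0.40 and 0.013, and by -0.28 and -0.49 without DMSO 1.

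Of the 9 assembly factors, dnaaf1 and dnaaf4 lay furthest below the other arrays in DMSO 1. dnaaf1, a leucine-rich repeat protein that cilia need in zebrafish for motility, was at 10.85, 10.42, 11.29, 10.56 and 10.83 in TCDD and 7.65, 10.30, 10.85, 11.05 and 11.11 in DMSO arrays. TCDD 3 and DMSO 5 were its highest arrays, so that neither group led. Its difference of 0.60 (95% CI -0.69 to 1.88) was -0.038 (95% CI -0.50 to 0.43) without DMSO 1.

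dnaaf9 had the smallest unadjusted p of all 31 genes, at 0.321. It was at 10.98, 10.63, 10.89, 10.74 and 10.86 in TCDD and 9.35, 10.42, 11.02, 11.09 and 10.72 in DMSO arrays. The TCDD arrays lay close together, inside the range of the DMSO arrays, and DMSO 1 lay 1.51 below the median of the rest. The difference was 0.30 (95% CI -0.34 to 0.94) and, without DMSO 1, 0.0092 (95% CI -0.33 to 0.34), which made it the 1 gene of the 31 above 0 there.

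dnaaf3l had the dimmest probe of the group and, by the brightest probe of each gene, was the only one in which DMSO 1 was not the lowest array. It was at 6.80, 5.82, 6.17, 6.30 and 6.08 in TCDD and 6.07, 6.31, 6.41, 6.06 and 6.66 in DMSO arrays, with a difference of -0.072 (95% CI -0.49 to 0.35). Its other 2 probes, at percentiles of 29.9 and 27.7, differed by 0.018 and 0.46. DMSO 1 lay 0.030 and 1.51 below the median of the other arrays by these probes. By the dimmest probe DMSO 1 was the lowest array, at 4.37 against 4.61 to 6.26.

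The remaining assembly factors were dnaaf2 and dnaaf6, which contain PIH domains, dnaaf4 (dyx1c1), dnaaf10 (wdr92), dnaaf11 (lrrc6) and dnaaf19 (ccdc103). Their differences lay between 0.044 for dnaaf11 and 0.52 for dnaaf4, and between -0.37 for dnaaf11 and -0.12 for dnaaf4 without DMSO 1. DMSO 1 lay 1.84 below the other arrays for dnaaf10, 1.87 for dnaaf11, 2.34 for dnaaf6, 2.62 for dnaaf2, 2.79 for dnaaf19 and 3.25 for dnaaf4. dnaaf6 had a second, dim probe at percentile 23.5 that differed by -0.60. By this probe DMSO 1 lay 0.41 below the median of the other arrays. It was not the lowest array, at 4.95 against 4.03 in TCDD 3 and 4.62 in TCDD 2.

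**Figure D2:**
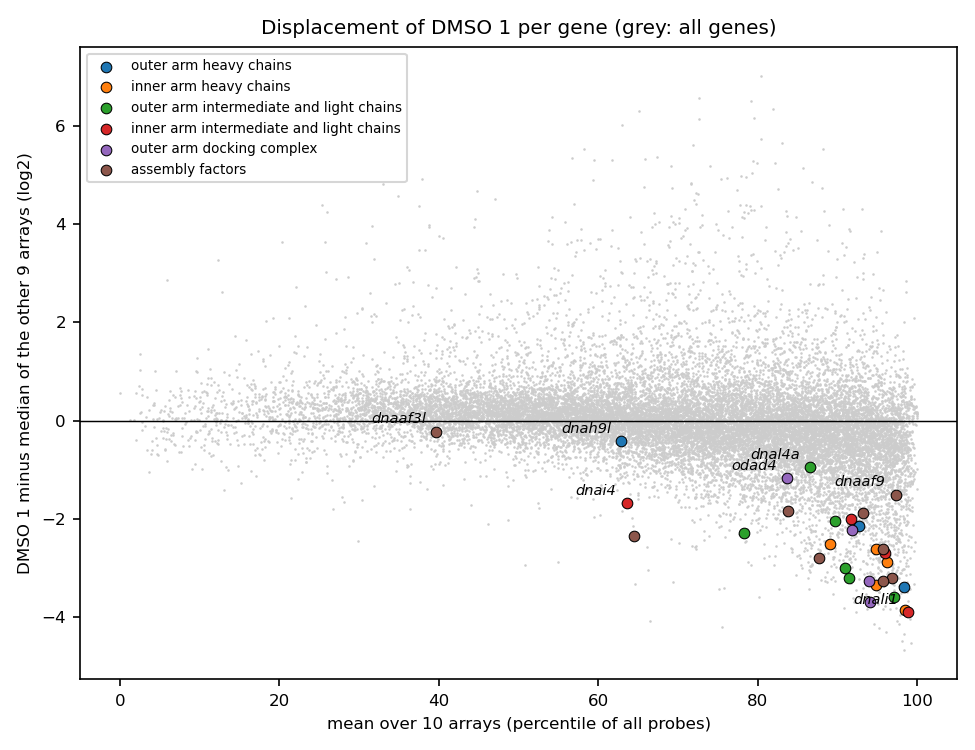
Displacement of DMSO 1 from the median of the other 9 arrays (log2, vertical axis) against mean brightness (percentile of all probes, horizontal axis), for all 19260 genes in grey and the 31 genes coloured by role. The 31 genes lie between -0.23 and -3.90, all below 0, and the 3 genes nearest 0 are dnaaf3l, dnah9l and dnal4a.

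The size of the displacement in DMSO 1 differed between genes, and also between probes of the same gene. DMSO 1 lay 1.16 and 2.51 below by the brighter and dimmer odad4 probes, and 3.90 and 0.25 below by those of dnali1. The ranks and medians here use the brightest probe of each gene. Ranked among all 19260 genes by displacement, dnali1 was number 16 from the bottom and dnah1 number 21, and 10 of the 31 genes were among the lowest 100. These 10 came from every role, with dnah9, dnah1, dnah6, dnai1.1, dnai2a, dnali1, odad1, odad3, dnaaf1 and dnaaf4. By role, the median displacement was -2.13 for outer arm heavy chains, -2.87 for inner arm heavy chains, -2.63 and -2.35 for outer and inner arm intermediate and light chains, -2.74 for docking genes and -2.34 for assembly factors. All 5 inner arm heavy chains lay at least 2 units below, and 5 of the 9 assembly factors did. Whether the roles differ in this was not tested.

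Between the groups, 0 of the 31 genes passed a limma adjusted p of 0.05, and 0 passed an unadjusted p under 0.05, against 0% and 2.48% of all genes. By direction, 0.8% of all genes were higher and 1.68% lower at that unadjusted p. Without moderation of the variances, the count for the 31 genes was 0 too. The median difference was 0.32 with 29 genes above 0, beside 0.018 and 54.6% of all genes above 0. Without DMSO 1 the median was -0.21 with 30 genes below 0, beside -0.012 and 52.6% of all genes below 0. With all arrays kept but weighted by their quality in limma, the median was -0.091. In no gene of the group did TCDD and DMSO arrays separate fully, with or without DMSO 1, against 0.493% and 2.51% of all genes. Every interval over 10 arrays included 0, with half-widths from 0.34 for dnah9l to 1.66 for dnali1. True differences of any size within these intervals are not excluded, and the intervals do not show that the groups were equal.

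The spread was wider among DMSO than TCDD arrays. The median SD of the 31 genes was 0.36 over the TCDD arrays, 1.195 over the 5 control arrays and 0.26 over DMSO 2 to 5, where all genes had 0.24, 0.30 and 0.21. Without DMSO 1, 3 genes had an unadjusted p under 0.05, all lower in TCDD, against 2.99% of all genes in that direction, 3.66% in the other and 6.65% in either. The count at an adjusted p was 0, as for all genes (0%). They were dnal4a, dnah5 at -0.43 (95% CI -0.83 to -0.028) and odad2 at -0.49 (95% CI -0.95 to -0.021), the last 2 named because of this count. The limma adjusted p of each was 0.716. No p-value without DMSO 1 allows for the choice of that array from the values of these same genes. odad2, a docking gene with armadillo repeats, was at 9.57, 9.77, 9.72, 8.97 and 9.82 in TCDD and 7.56, 9.68, 10.11, 9.92 and 10.51 in DMSO arrays, and TCDD 4 and DMSO 5 were the ends of its 9-array range.

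**Figure D3:**
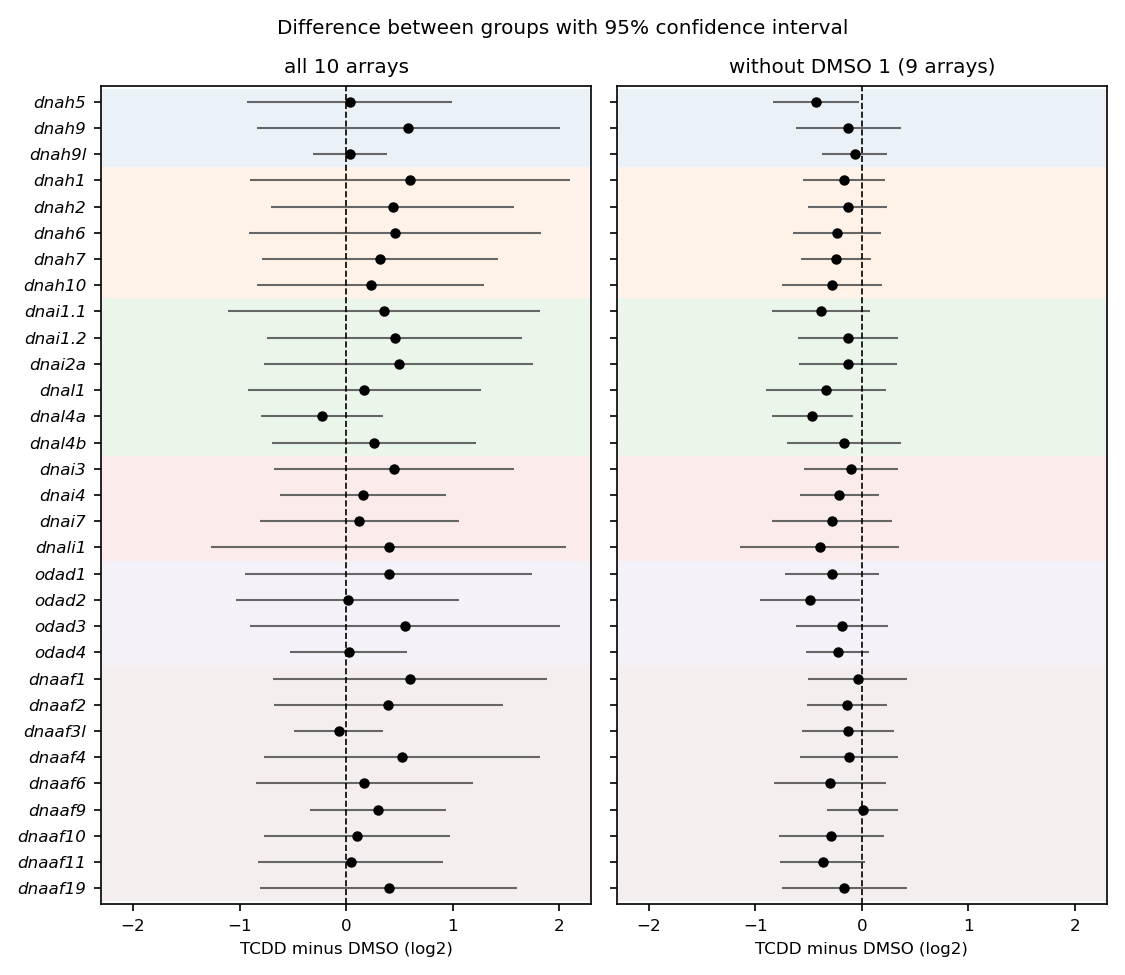
Difference between groups (TCDD minus DMSO, log2, horizontal axes) with 95% confidence intervals from limma for the 31 genes, over all 10 arrays on the left and without DMSO 1 on the right. All intervals on the left cross 0, and on the right those of dnah5, dnal4a and odad2 lie below it. The intervals on the right do not allow for the choice of DMSO 1 from these same values.

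By role, the medians over all arrays were 0.034 for outer arm heavy chains, 0.44 for inner arm heavy chains, 0.31 and 0.28 for outer and inner arm intermediate and light chains, 0.21 for docking genes and 0.30 for assembly factors. Without DMSO 1 they were -0.13, -0.23, -0.25, -0.25, -0.25 and -0.14 in the same order. All 6 medians were above 0 over 10 arrays and below 0 over 9.

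Among the 9 other arrays the low ones were TCDD 2 and TCDD 4. In 28 of the 31 genes the lowest of these 9 arrays was TCDD 2 or TCDD 4 (16 and 12 genes), which was true of 37.4% of all genes. The median deviation of the 31 genes from their own 10-array medians was -0.42 in TCDD 2, -0.41 in TCDD 4 and -0.14 in DMSO 2, and between 0.010 and 0.22 in the other arrays but DMSO 1, where it was -2.58. DMSO 3, DMSO 4, DMSO 5 and TCDD 1 held the highest value for 30 of the 31 genes. Leaving out both DMSO 1 and TCDD 2 gave a median difference of -0.13.

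Markers of other cells also differed between arrays, only partly in the same ones. The 9 measured intestine genes had a mean level of 11.1 in DMSO 1. They stood at 10.6 and 10.2 in TCDD 2 and TCDD 3, and at 6.41 to 7.31 in the other 7 arrays. The 15 measured genes of exocrine pancreas averaged 12.1 in DMSO 1, with 11.0 and 10.3 for TCDD 2 and TCDD 4, and 7.78 to 9.13 elsewhere. All 9 intestine genes and all 15 pancreas genes were higher in DMSO 1 than the median of the other arrays. DMSO 1, TCDD 2 and TCDD 4, the arrays highest in pancreas genes, were also the lowest in the 31 genes. Their median deviations in the 31 genes were -2.58, -0.42 and -0.41. TCDD 3, with intestine genes nearly as high as TCDD 2, had a median deviation of 0.090 in the 31 genes. TCDD 4 had low intestine genes. Liver genes deviated by 3.14 in TCDD 5, where the 31 genes deviated by 0.010. The part of these tissues in the dynein values was not tested.

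Germ cell markers were read in the same arrays, and they do not by themselves test the testis label. The 8 measured meiotic genes were bright, at a median percentile of 96.4, and all 8 were lowest in DMSO 1, at a median of 3.03 below the other arrays. sycp1, a component of the synaptonemal complex, was at 8.26 in DMSO 1 against 11.22 to 12.01 in the others. The 11 measured genes of spermatogonia were dimmer, at a median percentile of 82.2. Their median displacement in DMSO 1 was 0.011, with 6 of the 11 above the median of the other arrays and 4 lowest there. Among the bright genes of this list, ddx4, piwil1 and piwil2 lay 1.25, 1.34 and 1.42 below the median of the other arrays, and zbtb16a 0.44 above it. Among the lists of other cells, Leydig cell genes lay 1.59 below and Sertoli cell genes 0.54 below the other arrays at the median of 7 and 10 genes. The medians were 0.97 below for 5 erythrocyte genes, 0.73 below for 11 liver genes and 0.045 below for 10 oocyte genes. For 8 genes of multiciliated cells and their ducts the median was 0.76 below, and for 12 skeletal muscle genes 0.24 above. The Leydig cell genes ranged from 0.094 below the median of the other arrays for hsd11b2 to 4.67 below it for insl3. That drop of insl3 was the largest of all genes, with 7.09 in DMSO 1 against 11.13 to 11.93 in the others. Per array, meiotic genes deviated by -0.66 in TCDD 2, -0.47 in TCDD 4 and -2.97 in DMSO 1, beside -0.42, -0.41 and -2.58 for the 31 dynein genes.

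**Figure D4:**
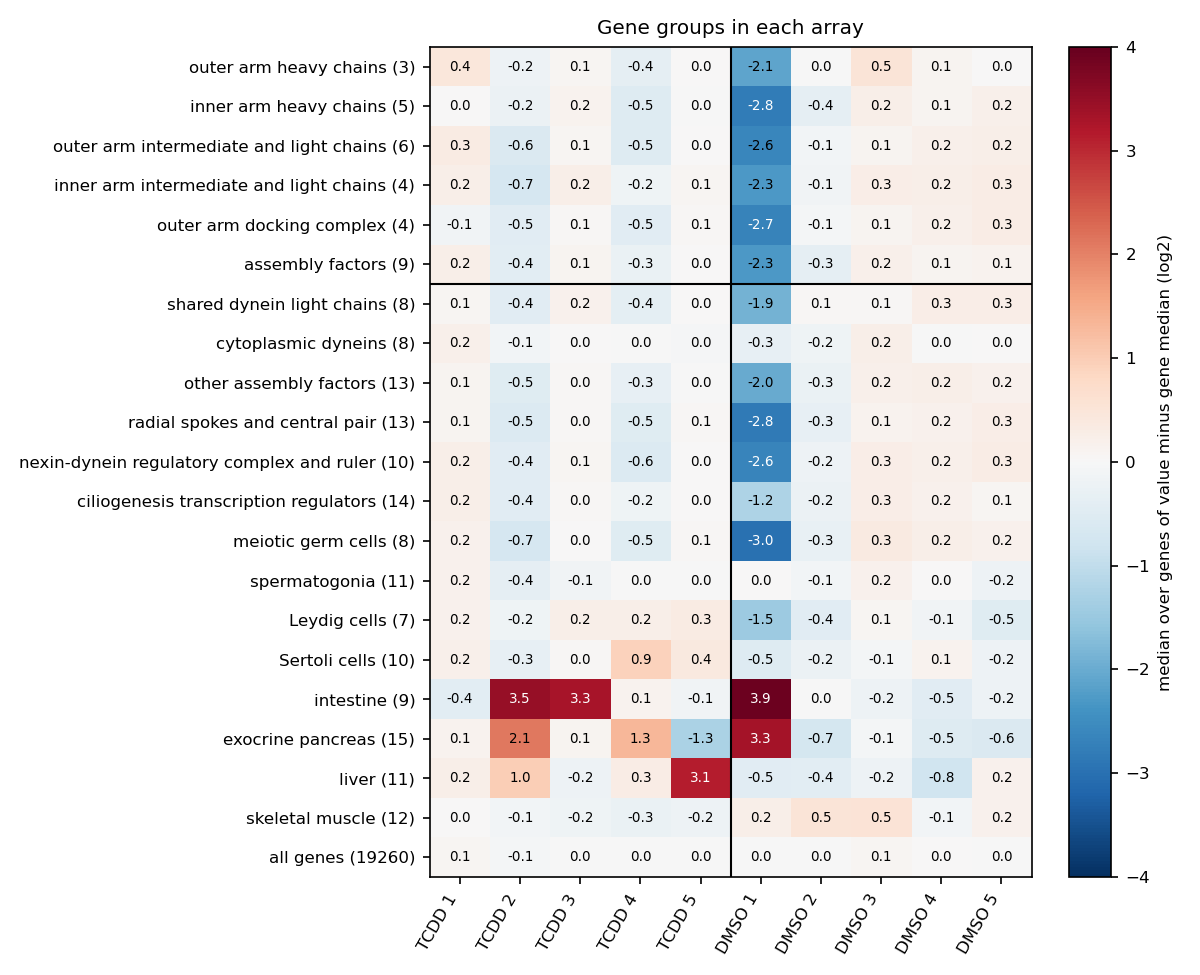
Median over genes of the deviation from each gene's own median over 10 arrays (log2, colour and printed value), for gene groups in rows, with the number of genes measured in brackets, and arrays in columns. The 6 roles of axonemal dynein genes in the upper rows are lowest in DMSO 1, at -2.12 to -2.79, where intestine and exocrine pancreas genes are at 3.91 and 3.33.

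Other genes of the axoneme were compared through lists set by hand. Of 13 radial spoke and central pair genes, 0 had an unadjusted p under 0.05 and all 13 were lowest in DMSO 1, with a median difference of 0.35 that became -0.23 without that array. Without DMSO 1, 1 of the 13 had an unadjusted p under 0.05, rsph3 of the radial spoke, lower in TCDD at -0.45. The shares of all genes at that p were 2.48% over 10 arrays and 6.65% without DMSO 1. spag6, a central pair protein, was at 7.94 in DMSO 1 and 11.03 to 11.94 in the others. Of 10 genes of the nexin-dynein regulatory complex and the axonemal ruler, 0 had an unadjusted p under 0.05 and all 10 were lowest in DMSO 1, with medians of 0.31 and -0.17. Within this list drc11 lay 0.37 below the other arrays in DMSO 1 and drc1, a subunit at the base of the regulatory complex, 3.76.

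Of 13 further assembly factors and chaperones 11 were lowest in DMSO 1, with a median difference of 0.11 and, without that array, -0.27. zmynd10, which acts with dnaaf11, lay 2.50 below, and daw1, which helps load outer arms, 3.08. The exceptions were spag1a and tbcb. spag1a was highest in DMSO 1, at 8.93 against 7.13 to 8.41, while its copy spag1b was at 8.99 against 10.13 to 11.03. None of the 13 had an unadjusted p under 0.05.

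Cytoplasmic dyneins were mixed in DMSO 1. dync1h1, the heavy chain of the motor that carries cargo along microtubules in most cells, was at 10.09 in DMSO 1 and 9.50 to 9.82 in the other arrays, and so was highest where dnah1 was lowest. dync1i2a lay 0.63 above the others' median, and the light intermediate chains dync1li1 and dync1li2 lay 0.063 and 0.14 below. dync1i2b, another intermediate chain of the same motor, was lowest in DMSO 1, 0.57 below the others' median. The subunits of dynein-2, the motor of transport inside cilia, were lower there, with dync2h1, dync2i2 and dync2li1 at 1.78, 2.46 and 3.30 below the other arrays. Of the 8 cytoplasmic dynein genes 4 were lowest in DMSO 1, and the median distance below the other arrays was 0.35. The median difference between groups was 0.0077, and -0.027 without DMSO 1. Of the list 0 genes had an unadjusted p under 0.05 over 10 arrays, and 1 had without DMSO 1, dync2h1 at -0.33. The difference between this list and the axonemal genes was not tested.

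Light chains shared between dyneins varied as well. dynlrb2 was at 6.34 in DMSO 1 and 8.85 to 10.75 in the others, while dynlt3 was at 10.79 and 10.40 to 11.47. Of the 8 measured, 7 were lowest in DMSO 1, and the median differences were 0.18 and, without that array, -0.22.

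Regulators of ciliary genes were followed as well. foxj1a, a forkhead factor that switches on motile cilia genes in zebrafish, was at 9.73, 9.04, 9.63, 9.26 and 9.68 in TCDD and 6.72, 9.26, 9.93, 9.68 and 9.76 in DMSO arrays, a difference of 0.40 that became -0.19. DMSO 1 was its lowest array and TCDD 2 the next. rfx2 and rfx3, of the family that binds X-box promoters of ciliary genes, lay 1.39 and 2.28 below the median of the other arrays in DMSO 1. mcidas and gmnc, regulators of multiciliated cells, lay 0.30 and 1.23 below that median, and mcidas was lower in TCDD 2 than in DMSO 1. Of 14 such regulators 13 were lowest in DMSO 1 and 0 had an unadjusted p under 0.05, with median differences of 0.24 and -0.10.

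Within the group most pairs of genes were positively correlated over arrays. Over 10 arrays the median Pearson correlation of the 465 pairs was 0.94, and over the other 9 arrays it was 0.69, with 119 pairs above 0.8. All points share the same arrays and their normalization, so these are descriptions of 9 samples. The correlations were not computed for all genes or for the other lists. Whether they are particular to these genes was not tested. The 5 inner arm heavy chains were the closest role, at a median of 0.91 and a range of 0.85 to 0.97 over their 10 pairs. Outer arm chains had a median of 0.76, docking genes 0.68, inner arm chains 0.70, assembly factors 0.66 and outer arm heavy chains 0.51.

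The pair with the highest correlation over 9 arrays was dnai1.2 with odad3, at 0.98, followed by dnai2a with odad3 at 0.97. odad3 also followed the mean of the other 30 genes most closely, at 0.98, and dnai1.2 and dnai2a did so at 0.95. dnah9l was the gene least like the rest, at 0.29, and held all 5 pairs with a negative correlation, down to -0.24 with dnai4. dnaaf3l came next at 0.48. Their probes were the dimmest of the group, at percentiles of 62.9 and 39.7. dnai4 and dnaaf6, at percentiles of 63.6 and 64.5, followed the mean of the other genes at 0.76 and 0.93. Whether dimness lowers these correlations was not tested.

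**Figure D5:**
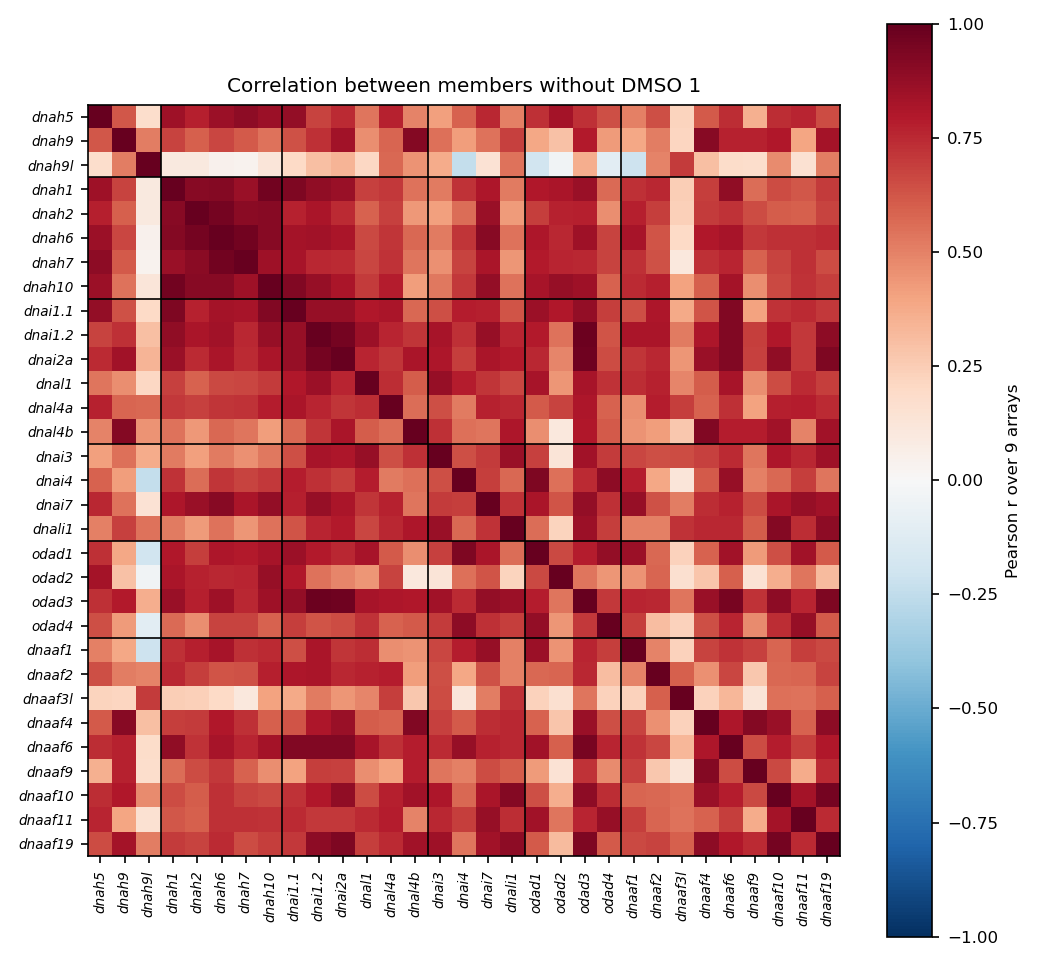
Pearson correlation (colour, from -1 to 1) between the 31 genes over 9 arrays without DMSO 1, with genes in the order of their roles and lines between roles. The block of 5 inner arm heavy chains is the darkest, at 0.85 to 0.97, and the row of dnah9l the palest, with 5 values below 0.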

How the data were processed

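Testis RNA of 5 TCDD and 5 DMSO males was measured on 1 Affymetrix array each. Values deposited by the authors were treated as log2 expression, because they ran from 1.25 to 14.6. No label or file header states the log base, background correction or normalization. Each of the 10 columns carried a sample's label, and 0 were left out.

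Of 75212 probes, 20806 had a single gene symbol in the platform annotation, 855 several and 53551 none. The probe with the highest mean over the 10 arrays was kept per gene, which left 19260 genes, and 20323 probes matched RefSeq by Entrez identifier. The 31 genes had 39 probes, and 5 of them had more than 1. A further probe that names dnali1 and another gene was not used.

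The TCDD and DMSO arrays entered 1 linear model per gene (limma 3.58.1, R 4.3.3) over all genes, with Benjamini-Hochberg adjustment and a threshold of 0.05. The fit was tested on simulated data whose spread was taken from the arrays without DMSO 1. That test does not cover a fit with an array that stands apart. The number of arrays limits the precision, and the median standard error was 0.18 over all genes and 0.50 over the 31. The labels call the samples biological replicates and do not say whether they shared a tank. The p-values set each difference against the spread between these samples, and they do not allow for a shared tank.

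The genes, roles and lists were chosen with earlier results of these data known. Values per array are given, in each role, for the gene with the smallest p, the largest difference, the largest range and the smallest range. Of each further list, at most the 3 genes with the smallest p could be named by this rule (daw1, dync1h1, dync2i2, dync2li1, spag6, drc11, rfx2, rfx3, gmnc and sycp1 here). The other genes named from those lists, and the values per array of dnah5 and odad2, were chosen after their values were seen. A planned search of promoter motifs was not run, and no sequence is shown. Alternatives were other variance models, array weights, other normalizations, the mean of all probes, leaving out dim probes, the replicate number as a block, a plain test and left-out arrays. Quantile normalization and median centring without DMSO 1 were added after seeing the data.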

Additional observations from a re-analysis of the deposited data

Results flagged for a closer look

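In 24 of the 31 genes the DMSO group held an array whose gap to the nearest other array was above Dixon's critical value of 0.71 of the group's range for 5 samples, and in all 24 that array was DMSO 1, at the low end. Chance flags about 1 in 20 groups, and 16% of all genes were flagged in the DMSO group and 6.54% in the TCDD group. The 24 flags come from 1 array and from genes that were correlated over arrays. They are thus not independent, and their count does not measure how far chance could go. Among heavy chains the ratio of gap to range was 0.804 for dnah5, 0.811 for dnah9, 0.877 for dnah1, 0.796 for dnah2, 0.804 for dnah6, 0.853 for dnah7 and 0.719 for dnah10. Among intermediate and light chains it was 0.886 for dnai1.1, 0.818 for dnai1.2, 0.863 for dnai2a, 0.756 for dnal1, 0.92 for dnai3, 0.743 for dnai4 and 0.819 for dnali1. The docking genes odad1, odad2, odad3 and odad4 gave 0.851, 0.718, 0.871 and 0.8. Among assembly factors the ratio was 0.765 for dnaaf1, 0.922 for dnaaf2, 0.781 for dnaaf4, 0.728 for dnaaf6, 0.844 for dnaaf11 and 0.741 for dnaaf19. In the TCDD group 1 gene was flagged, dnah9l at 0.772, where TCDD 1 was the high array.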

How the results depend on the processing

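No gene of the 31 passed an adjusted p of 0.05 under any alternative run. Moderation with trend and robust estimation, quantile normalization, median centring and the plain test changed no direction and no call, with 574 genes at an unadjusted p under 0.05 by the plain test. The replicate number as a block gave 398 genes at an unadjusted p under 0.05 against 478 without it, 0 at an adjusted p and 0 of the 31, and the labels' numbers were not taken as pairs, since the deviations of same-numbered arrays correlated at -0.58 to 0.29. A filter on genes above the median probe left 255 of 15688 at an unadjusted p under 0.05. The mean of all probes changed the sign of 2 of the 31 differences, with dnaaf3l at 0.14. The other was dnaaf6, whose probes differed by 0.17 and -0.60. The mean of all probes moved dnah9 from 0.58 to 0.19, dnali1 from 0.40 to 0.18 and odad4 from 0.022 to 0.24. It moved the medians of inner arm chains from 0.28 to 0.17 and of docking genes from 0.21 to 0.32. Leaving out each array in turn, the genes at an unadjusted p under 0.05 numbered 289 to 1280, with 289 without DMSO 2 and 1280 without DMSO 1, and 0 to 1 passed an adjusted p, the 1 without TCDD 2. Of the 31 genes 0 to 3 had an unadjusted p under 0.05. The median difference was -0.21 to 0.49 for the 31 genes, -0.13 to 0.23 for outer arm heavy chains, -0.23 to 0.63 for inner arm heavy chains, -0.25 to 0.51 for outer arm chains, -0.25 to 0.46 for inner arm chains, -0.25 to 0.44 for docking genes, -0.14 to 0.44 for assembly factors, the lowest value each time without DMSO 1. Over all genes the median was -0.012 to 0.045. By gene it was -0.13 to 0.85 for dnah9, -0.069 to 0.091 for dnah9l, -0.17 to 0.83 for dnah1, -0.24 to 0.49 for dnah7, -0.46 to -0.13 for dnal4a, -0.13 to 0.69 for dnai2a, -0.38 to 0.59 for dnai1.1, -0.10 to 0.61 for dnai3, -0.39 to 0.69 for dnali1, -0.21 to 0.31 for dnai4, -0.18 to 0.77 for odad3, -0.23 to 0.12 for odad4, 0.0092 to 0.44 for dnaaf9, -0.038 to 0.83 for dnaaf1, -0.21 to 0.032 for dnaaf3l. Array weights gave 1400 genes and 1 of the 31 at an unadjusted p under 0.05, a median of -0.091 for the 31 genes and, by role in the order above, -0.080, -0.077, -0.13, -0.12, -0.11, -0.060. Under weights 22 of the 31 differences changed sign and 24 were below 0, and of the 15 genes named by rule the changed ones were dnah9l -0.080, dnah1 -0.033, dnah7 -0.11, dnai1.1 -0.23, dnali1 -0.19, dnai4 -0.11, odad3 -0.033, odad4 -0.13. Without DMSO 1 and TCDD 2 together, 1190 genes and 2 of the 31 had an unadjusted p under 0.05 and 1 gene of the table passed an adjusted p. The median was -0.13 for the 31 genes and, by role, -0.052, -0.20, -0.10, -0.11, -0.16, -0.026, and 25 of the 31 differences changed sign, among the 15 named genes dnah9 -0.052, dnah9l -0.046, dnah1 -0.14, dnah7 -0.23, dnai2a -0.016, dnai1.1 -0.31, dnali1 -0.098, dnai4 -0.13, odad3 -0.073, odad4 -0.15. Without DMSO 1, quantile normalization gave 1468 genes and 3 of the 31, with a median of -0.20, and median centring gave 1181 genes and 1 of the 31, with a median of -0.19. The cause of these changes was not tested. With 5 arrays a group, the number of arrays limits the precision, and no interval was given for differences between lists.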
